A study of Mus musculus with 2 samples.

Results

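Interstitial macrophages of the mouse lung were examined in 2 single-cell libraries, and 212 of 15695 droplets were counted as such cells. They were chosen by the UMIs (unique molecular identifiers, each standing for 1 captured transcript) of the complement genes C1qa, C1qb and C1qc, which had to sum to at least 4. At most 1 UMI was allowed over the alveolar macrophage genes Ear1, Plet1, Atp6v0d2 and Fabp1. The same limit of 1 UMI held over the endothelial gene Cdh5, the B cell gene Cd79a, the T cell gene Cd3e, the epithelial gene Epcam and the fibroblast gene Col1a2. The rule took 102 of 7988 droplets in the control library and 110 of 7707 in the other.

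The lungs came from female BALB/c mice aged 9 to 10 weeks that had received intravenous injections for 3 weeks. Control animals were given control media (CM), and the others tumor conditioned media (TCM), in which 4T1 mouse breast tumors had been kept without serum. The comparison asked how the lung changes before any tumor cell arrives in it. Each condition was 1 library, and the number of mice in a library was not stated, so there were no replicates, no test was possible, and every interval given here is a 95% interval that covers counting error only.

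Interstitial macrophages live in the tissue around vessels, bronchi and alveolar walls, whereas alveolar macrophages live on the air side. They take up debris, make complement C1q, and are usually divided into cells rich in MHC class II, which present antigen to CD4+ T cells, and cells that carry Lyve1, Folr2 and other scavenger receptors and lie along vessels. MHC class II molecules are pairs of an alpha and a beta chain, such as those made from H2-Aa and H2-Ab1, that are guided to the endosome by the invariant chain Cd74.

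MHC class II genes ranged widely between these droplets, and the proximal promoters of H2-Aa and H2-Eb1 are shown because both hold the core of the Y box, the CCAAT-type element that these genes are known for. The Cd163 promoter, from a scavenger receptor of the Lyve1-bearing cells, is set beside them to show that the same letters are not limited to MHC class II genes. Each line gives the 150 bases before the transcription start from RefSeq (GRCm38.p6), 5′ to 3′ on the gene's strand, with ATTGG or its reverse complement CCAAT in capitals.
H2-Aa: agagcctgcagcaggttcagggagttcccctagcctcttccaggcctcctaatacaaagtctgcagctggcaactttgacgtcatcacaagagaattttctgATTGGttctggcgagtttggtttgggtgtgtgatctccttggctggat
H2-Eb1: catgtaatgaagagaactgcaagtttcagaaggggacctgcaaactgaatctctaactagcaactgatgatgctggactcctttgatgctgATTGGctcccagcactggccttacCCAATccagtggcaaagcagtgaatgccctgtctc
Cd163: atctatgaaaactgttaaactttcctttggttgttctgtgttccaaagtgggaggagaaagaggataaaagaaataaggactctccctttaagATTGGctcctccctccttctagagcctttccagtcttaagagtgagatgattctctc
These windows lie at chr17:34287824-34287973 on the minus strand, chr17:34305717-34305866 on the plus strand and chr6:124304501-124304650 on the plus strand. The motif began 48 bases before the start of H2-Aa, 59 and 35 bases before that of H2-Eb1, and 57 bases before that of Cd163. Over the 250 bases upstream, on either strand, ATTGG was found in 11120 of 32851 promoters (33.8%). It was found for 5 of the 6 MHC class II list genes with a promoter entry, out of 10 in the list, and for 6 of 11 Lyve1-type genes, out of 13. The MHC class II list gene without it was Cd72, which does not itself encode an MHC class II molecule. A list gene was counted if any of its promoter windows held the motif, whereas the 33.8% counts single windows. The list counts are therefore not directly comparable with it.

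First, the selected droplets were compared with what the name says. C1qa, C1qb and C1qc chose them, so their levels are a description. The 3 genes lie side by side on the minus strand of chromosome 4 (GRCm38), C1qa at chr4:136895917-136898803, C1qc at chr4:136889804-136893065 and C1qb at chr4:136880129-136886187. C1qa stood at 748.1 UMIs per 100000 UMIs of the summed droplets in CM and 843.3 in TCM. C1qb stood at 528.9 and 585.5, and C1qc at 500.3 and 531.4. The C1q sum per droplet ran from 4 to 335 UMIs in CM, with a median of 76, and from 4 to 319 in TCM, with a median of 90. Just inside the threshold, 4 CM and 5 TCM droplets had 4 or 5 C1q UMIs. Just outside it, 10 CM and 49 TCM droplets of any type had 2 or 3. Of all droplets with at least 4 C1q UMIs, 120 in CM and 125 in TCM, the alveolar set removed 4 and 1, and the lineage set 17 and 14, with 3 CM droplets failing on both.

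Of 15 macrophage core genes that the rule did not use, 11 had a UMI in over 50% of the droplets of each library and 4 did not. Csf1r, the receptor for the macrophage growth factor CSF1, had a UMI in 84 of 102 CM and 95 of 110 TCM droplets. Adgre1, which encodes F4/80, was detected in 54 and 62. The 4 seen in fewer were Mertk (16 and 22 droplets), Itgam (25 and 36), Fcgr1 (31 and 44) and Trem2 (44 and 51). The level of Csf1r was 90.2 UMIs per 100000 in CM and 124.5 in TCM, against 7.33 and 8.2 in alveolar macrophages (219 CM and 288 TCM droplets with at least 4 UMIs of the alveolar set). In monocytes, 173 CM and 302 TCM droplets with at least 4 UMIs of Csf1r, Ms4a6c, Plac8 and Ms4a4c and at most 1 C1q UMI, Csf1r stood at 28.7 and 37.5. Ms4a7, a membrane protein gene of tissue macrophages, stood at 54.7 and 50.5 in the interstitial macrophages and at or below 0.746 in both other classes and both libraries. On Csf1r and Ms4a7 the label held, although Csf1r helped to choose the monocytes. Some other core genes did not separate the classes. Mertk stood at 4.47 in CM and 5.18 in TCM, against 4.72 and 7.35 in alveolar macrophages. Cd68 stood at 55.4 and 76.3, against 65.5 and 57.6 there. In TCM, Cd14 stood at 161.7 and Fcgr1 at 13, against 194.6 and 13.6 in monocytes.

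Markers of other cells were low but not absent. Of 12 alveolar macrophage markers outside the rule, Marco and Krt79 had no UMI in either library, and Siglecf had 0 in CM and 1 in TCM. The list summed to 36 and 38.7 UMIs per 100000, against 924.3 and 868.6 in alveolar macrophages. Of the 11 neutrophil markers, Ly6g, Camp and Ltf had no UMI. Xcr1 and Cd300e, defining markers of cross-presenting dendritic cells and of non-classical monocytes, had none either. Other markers of these lists were present, more so in TCM. Neutrophil markers summed to 10.5 UMIs per 100000 in CM and 78.6 in TCM, and dendritic cell markers to 27 and 59.5. Classical monocyte markers summed to 33.3 in CM and 77.9 in TCM. Non-classical monocyte markers summed to 44.5 UMIs per 100000 in both libraries, lymphocyte markers to 32.6 in CM and 20.9 in TCM, and erythroid markers to 0.67 and 2.69. Structural cell markers summed to 249.3 and 368.5, and the club cell secretory gene Scgb1a1 was found in 101 of 102 CM droplets and 110 of 110 TCM droplets. The Ly6c2 transcript of classical monocytes had 2 UMIs in CM and 19 in TCM. The median CM droplet held 4512 UMIs from 1631 genes and the median TCM droplet 4814.5 UMIs from 1677 genes, and mitochondrial genes gave a median of 1.35% and 1.61% of the UMIs. A group of 33 CM and 25 TCM droplets had fewer than 2000 UMIs. The 2 libraries shared 93 droplet barcodes among all that passed the filters and 0 among the interstitial macrophages. Because shallow or mixed droplets could weigh on a sum, values are also given for the 66 CM and 75 TCM droplets with at least 2000 UMIs of which at least 1% came from C1q, here called deep droplets, a choice made after seeing the data.

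Next, the abundance of the cells was compared. Interstitial macrophages made up 1.28% of CM droplets (interval 1.04 to 1.55%) and 1.43% of TCM droplets (interval 1.17 to 1.72%). The ratio of the shares was 1.12 (interval 0.846 to 1.48), so no difference in abundance was detectable at this depth. This share follows from the C1q rule and is a description.

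Within both libraries, the droplets spread over a wide range of MHC class II. H2-Aa, H2-Ab1, H2-Eb1 and Cd74 together took from 0% to 23% of a droplet's UMIs in CM and from 0% to 23.8% in TCM. A boundary at 5%, set after seeing the data, divided CM into 45 low and 57 high droplets and TCM into 49 low and 61 high droplets. It is a cut through a range, not a pair of cell types: 5 CM and 8 TCM droplets lay between 4% and 6%. The low range held 44.1% of CM droplets (interval 34.3 to 54.3%) and 44.5% of TCM droplets (interval 35.1 to 54.3%). Among deep droplets it held 21 of 66 in CM (31.8%, interval 20.9 to 44.4%) and 30 of 75 in TCM (40%, interval 28.9 to 52%). These intervals overlap. Low droplets were the shallower ones (median depth 1845 UMIs for CM, 3628 for TCM, against 5441 and 5272 for high droplets), and the part of depth in the values below was not tested.

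**Figure D1:**
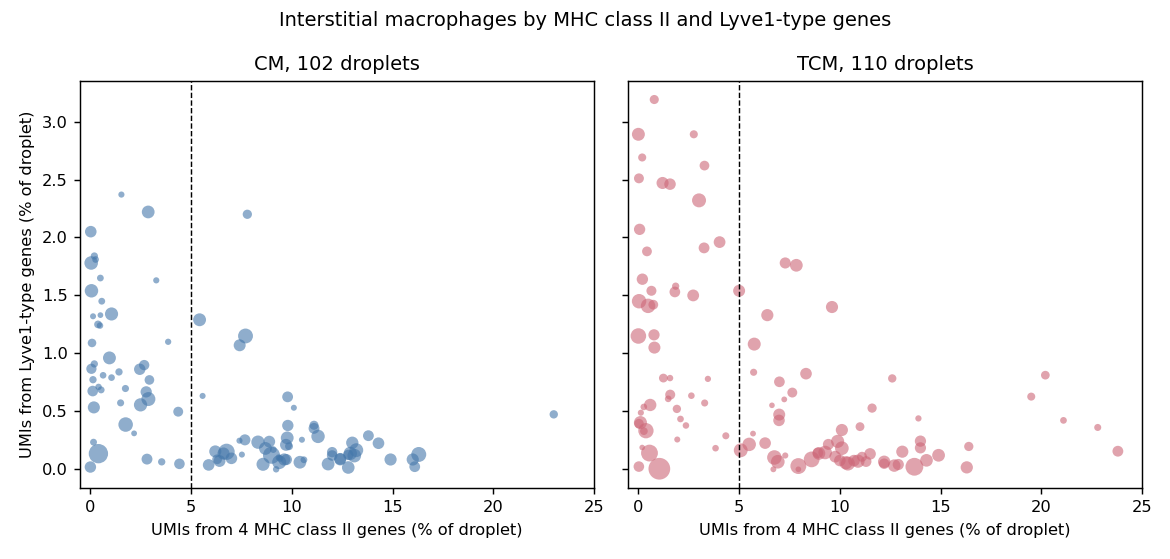
Each point is 1 interstitial macrophage droplet, CM on the left (102) and TCM on the right (110), with the percent of its UMIs from H2-Aa, H2-Ab1, H2-Eb1 and Cd74 on the horizontal axis, the percent from 13 Lyve1-type genes on the vertical axis, and a larger point for more UMIs. The droplets left of the dashed line at 5% (45 in CM, 49 in TCM) reached higher Lyve1-type shares than most to its right, with medians of 0.84% against 0.148% in CM and 1.05% against 0.182% in TCM.

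The genes of the Lyve1-bearing macrophage went the other way from MHC class II. None of them was used to set the boundary, although all are counted in the same droplets and as shares of the same totals. In CM, 11 of 11 Lyve1-type genes with at least 20 UMIs were at least 2-fold higher in low than in high droplets, where 10.1% of all genes were so. In TCM, 12 of 12 were, where 13.2% of all genes were so. The median log2 ratio of low over high was 3.00 in CM and 2.59 in TCM, against 0.20 and 0.25 over all genes. Folr2, a folate receptor, stood at 56.9 UMIs per 100000 in low and 4.87 in high CM droplets, and at 72.4 and 10.4 in TCM. F13a1, the A chain of coagulation factor XIII, stood at 44.4 and 5.56 in CM and at 104.2 and 10.4 in TCM. Spearman's rho between a droplet's MHC class II share and its Lyve1-type share was -0.609 over 102 CM droplets and -0.521 over 110 TCM droplets. Over droplets with at least 2000 UMIs it was -0.475 (69 droplets) and -0.575 (85 droplets).

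Several other genes followed the same division in both libraries. Ccl24, an eosinophil-attracting chemokine, stood at 36.9 UMIs per 100000 in low and 5.91 in high CM droplets, and at 36 and 6.51 in TCM. Igf1, a growth factor, stood at 24.4 and 1.74 in CM and at 16.8 and 5.21 in TCM. The high droplets carried Il1b, the inflammatory cytokine interleukin-1 beta, at 129.7 UMIs per 100000 against 28.7 in CM, and at 158.1 against 36 in TCM. Mmp12, the macrophage elastase, was at 80.6 in high against 10 in low droplets in CM and at 38.1 against 1.4 in TCM. Itgax, which encodes CD11c, was at 7.65 against 0 in CM and at 14.6 against 0.467 in TCM. Summed C1qa differed little between the ranges, with 786.8 in low and 726.5 in high CM droplets and 901.0 and 803.1 in TCM. The median C1q share per droplet differed more in CM, at 1.13% in low and 1.68% in high droplets. In TCM it was 1.88% and 1.94%.

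The main comparison was TCM against CM over all interstitial macrophages. Of 5356 genes with at least 20 UMIs over both libraries, the rule genes left out, 289 (5.40%) were at least 2-fold higher in TCM and 120 (2.24%) at least 2-fold lower. The median log2 ratio was 0.03. The counting interval excluded 0 for 187 of the 289 higher genes and for 69 of the 120 lower genes. At any fold, the counting interval lay above 0 for 353 genes (6.59%) and below 0 for 226 (4.22%). Of the genes higher in TCM, 35 took over 50% of their TCM UMIs from 1 droplet, and 6 of the lower genes took over 50% of their CM UMIs from 1 droplet. A fold over so few droplets can be set by 1 cell, so the number of droplets is given beside many of the genes below.

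Of the 17 gene lists that are not markers of other cells, the Lyve1-type list had the highest median. This order did not hold under every setting: after thinning, the chemokine receptor list had a median log2 ratio of 1.57 against 0.83, and with the mean over droplets the Toll-like receptor list had 0.77 against 0.73. Of 12 Lyve1-type genes with enough UMIs, 3 were at least 2-fold higher in TCM, against 5.40% of all genes, and none was 2-fold lower. A ratio above 0 was found for 11, as for 53.1% of all genes. For 10 of them the counting interval lay above 0. The list's median log2 ratio was 0.83 and its summed level 473.1 UMIs per 100000 in CM and 684.4 in TCM. In deep droplets the median was 1.12, and without the droplet holding the most UMIs of each gene in each library it was 0.88.

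Lyve1, a hyaluronan receptor first known from lymphatic vessels (chr7:110850607-110863239), had 19 UMIs in 11 CM droplets and 103 UMIs in 29 TCM droplets, a log2 ratio of 2.22 (interval 1.5 to 3.01). Cd163, the scavenger receptor for haemoglobin bound to haptoglobin (chr6:124304656-124330527), had 26 UMIs in 15 CM droplets and 125 in 32 TCM droplets, a log2 ratio of 2.05 (interval 1.43 to 2.71). F13a1 (chr13:36867178-37050244), which is also in the classical monocyte list, had 87 UMIs in 26 droplets and 255 in 33, a log2 ratio of 1.33 (interval 0.98 to 1.70), which was 0.97 after thinning and with the mean over droplets. In no case did 1 droplet hold as much as 30% of the UMIs of these 3 genes in either library. Among the genes short of 2-fold, Cbr2 (carbonyl reductase 2) had 129 UMIs in 38 droplets and 294 in 55 (log2 ratio 0.97). Stab1, a scavenger receptor for modified lipoproteins, had 100 UMIs in 39 droplets and 226 in 51 (0.96), and Mrc1, the mannose receptor CD206, 207 in 60 and 364 in 70 (0.59). Selenop, the plasma selenium carrier, had 970 UMIs in 94 droplets and 1122 in 101, with a log2 ratio of -0.01.

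The difference was present within both ranges of MHC class II. In low droplets the Lyve1-type list stood at 859.3 UMIs per 100000 in CM and 1216.4 in TCM, and in high droplets at 258.3 and 314.0. Set against CM, the TCM genes had a median log2 ratio of 0.66 over 12 genes in low droplets and 0.78 over 10 genes in high droplets, against 0.02 and 0.00 over all genes. In low droplets 3 of these 12 genes and in high droplets 4 of these 10 were at least 2-fold higher in TCM, against 6.36% and 4.84% of all genes. With the TCM levels of each range weighted by the CM mix of UMIs, the list would stand at 636.5, between the CM value of 473.1 and the TCM value of 684.4. Cd163 stood at 14.4 and 50.5 UMIs per 100000 in low droplets and at 1.04 and 5.53 in high droplets. Mrc1 stood at 68.7 and 122.0 in low droplets and at 33.7 and 33.5 in high droplets.

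**Figure D2:**
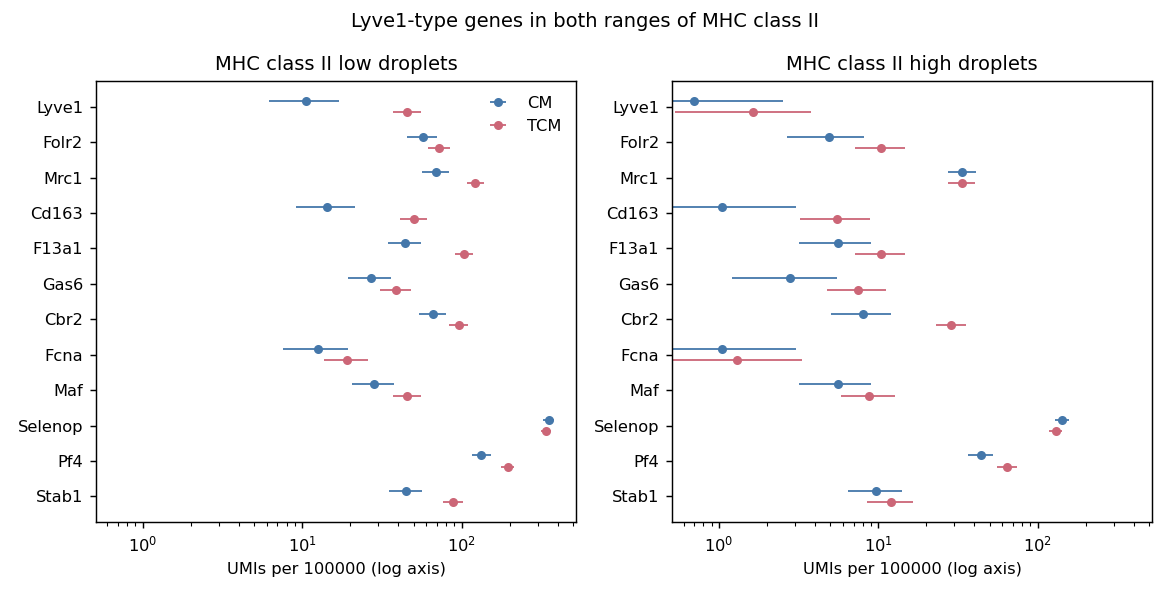
UMIs per 100000 (log axis) of 12 Lyve1-type genes, CM in blue and TCM in red, in MHC class II low droplets (left) and high droplets (right), with exact Poisson 95% intervals of the summed UMIs, some of which run off the left edge. The TCM points of Lyve1, Cd163 and F13a1 in low droplets, 45.8, 50.5 and 104.2, lie right of the CM points, 10.6, 14.4 and 44.4, with intervals that do not meet.

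The share of droplets with a Lyve1-type UMI was then compared at equal depth. Thinning to 1000 UMIs dropped 14 CM and 11 TCM droplets as too shallow, and of the rest 19 of 88 CM droplets (21.6%, interval 13.5 to 31.6%) and 26 of 99 TCM droplets (26.3%, interval 17.9 to 36.1%) had a Lyve1 or Folr2 UMI. Unthinned, the shares were 28.4% and 35.5%. These intervals overlap, so a difference in this share was not detectable. For Cd163 the thinned shares were 3.41% (interval 0.709 to 9.64%) and 18.2% (interval 11.1 to 27.2%), which do not overlap. The unthinned ones were 14.7% (interval 8.47 to 23.1%) and 29.1% (interval 20.8 to 38.5%), which overlap. Thinned shares of Lyve1 alone were 5.68% (interval 1.87 to 12.8%) in CM and 15.2% (interval 8.74 to 23.8%) in TCM. Those of F13a1 were 17% and 24.2%, and those of Mrc1 27.3% and 36.4%. For Lyve1, F13a1 and Mrc1 the thinned intervals overlap. T cells, which lack these genes, had a Lyve1 or Folr2 UMI in 0.179% of CM and 0.456% of TCM droplets after thinning, and a Cd163 UMI in 0.179% and 0.228%. Their median depth was 2601 and 2518 UMIs.

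The Lyve1-type list was also higher in TCM in the neighbouring cell types, at lower levels. In alveolar macrophages its median log2 ratio was 0.74, with 5 of 5 genes above 0 and sums of 85.1 and 112.6 UMIs per 100000, of which Mrc1 alone made up 61.1 and 78.6. In monocytes the median was 0.67, with 4 of 7 genes above 0 and sums of 67.7 and 146.3. Whether the change differed between the cell types was not tested. Lyve1 stood at 0.349 and 1.14 in alveolar macrophages (4 and 16 UMIs, log2 ratio 1.71), and at 3.23 and 2.43 in monocytes. Cd163 had at most 2 UMIs in either class and library. F13a1 stood at 31.9 in CM monocytes and 103.1 in TCM monocytes, a log2 ratio of 1.69 where interstitial macrophages had 1.33. Also in monocytes, Cbr2 had 23 and 133 UMIs (log2 ratio 1.82), Mrc1 1 and 27, and Stab1 1 and 15. Of the 9 classical monocyte markers, F13a1 included, 6 had enough UMIs in interstitial macrophages, and their median log2 ratio was 1.09. The list summed to 33.3 UMIs per 100000 in CM and 77.9 in TCM. Plac8 reached 28 UMIs in TCM against 1 in CM, but 23 of them lay in 1 droplet. The part of monocyte-like droplets in the difference was not tested.

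MHC class II genes, which set the boundary between ranges but not the comparison of libraries, differed little. Cd74 had 19483 UMIs in 101 CM droplets and 20228 in 105 TCM droplets, a log2 ratio of -0.17 (interval -0.19 to -0.14). None of the 10 list genes, which include Cd86, Cd72 and Ciita, was 2-fold apart, and the median log2 ratio was -0.13. H2-Aa had 5798 UMIs in 89 CM droplets and 6380 in 96 TCM droplets, a log2 ratio of -0.08 (interval -0.13 to -0.03). H2-Eb1 had 3644 and 3933 UMIs (log2 ratio -0.11), and H2-Ab1 3128 and 3777 (0.05). Ciita, the master coactivator of these genes, had 37 and 39. In monocytes H2-Aa stood at 343.6 UMIs per 100000 in CM and 87.2 in TCM, and the list's median log2 ratio was -1.91, with 0 of 10 genes above 0. Monocyte droplets also had fewer dendritic cell marker UMIs in TCM, 30.2 per 100000 against 86.2, and the difference between the cell types was not tested.

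The general macrophage programme was also close in both libraries, where 5.40% of all genes were 2-fold higher in TCM and 2.24% 2-fold lower. None of 15 macrophage core genes was 2-fold apart (median log2 ratio 0.22), and for 6 the counting interval lay above 0. Csf1r had 404 and 649 UMIs (log2 ratio 0.46) and Cd14, the lipopolysaccharide co-receptor, 510 and 843 (0.51). All 17 lysosomal genes, cathepsins and membrane proteins of the degradative compartment, were short of 2-fold (median 0.07), with Ctsb at 1014 and 1226 UMIs. Of 12 uptake receptors none was 2-fold apart (median 0.26). Of 14 lipid-handling genes only Cpt1a, which brings fatty acids into mitochondria, was (6 UMIs in 5 droplets and 18 in 16, log2 ratio 1.37, interval -0.03 to 2.99), and the median was -0.10. Plin2, which coats lipid droplets, had 173 and 198 UMIs (log2 ratio -0.02). Of 13 glycolysis genes, Pfkl was 2-fold higher (interval -0.14 to 2.49) and Hk1 2-fold lower (interval -2.85 to 0.06), with a median of -0.09. Of 8 complement genes outside the rule, Serping1, the C1 inhibitor, was 2-fold lower (66 UMIs in 17 droplets and 24 in 14, log2 ratio -1.68), but 0.13 in deep droplets, and the median was 0.19. None of 20 immediate early and heat shock genes, which cell handling is known to induce, was 2-fold apart (median 0.13).

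**Figure D3:**
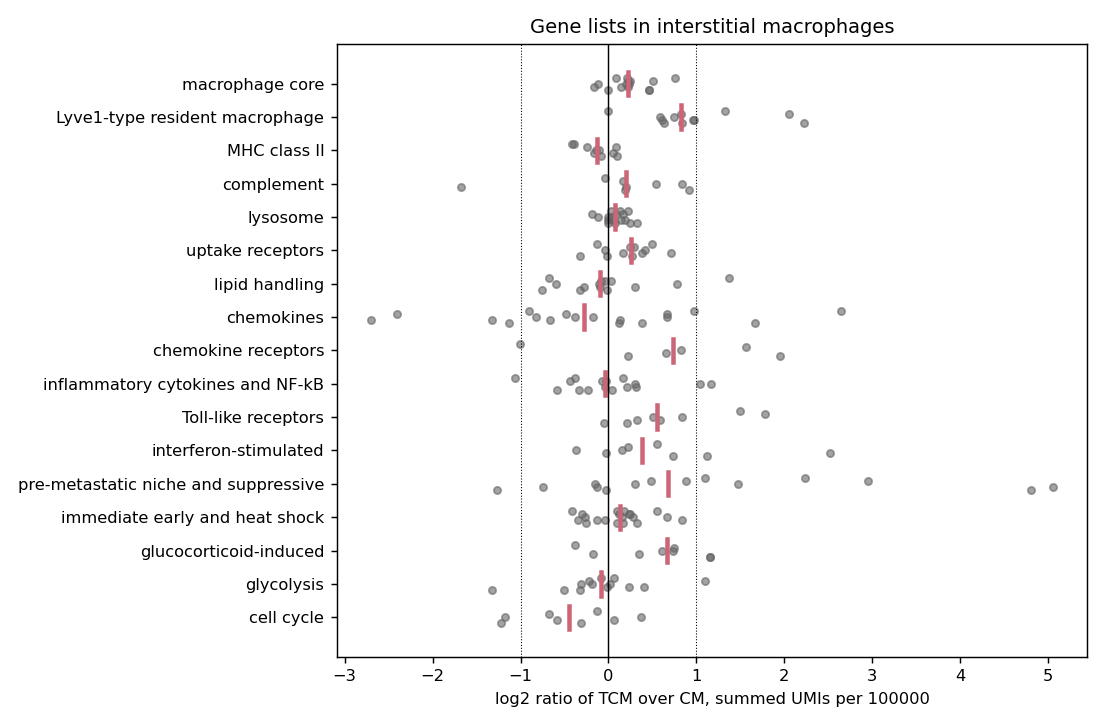
Each point is 1 gene with at least 20 UMIs, placed by its log2 ratio of TCM over CM in interstitial macrophages, with a red bar for the list's median and dotted lines at 2-fold. The Lyve1-type median is 0.83, MHC class II -0.13 and lysosome 0.07. The 2 points near 5 in the niche list are S100a8 and S100a9.

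Single droplets weighed heavily on several of the chemokines. Of 18 measured with enough UMIs, Ccl17 and Ccl22 were at least 2-fold higher in TCM, and Ccl8, Ccl5, Cxcl13 and Cxcl10 at least 2-fold lower. Of the 26 TCM UMIs of Ccl22, 22 lay in 1 droplet. Cxcl10 had 15 UMIs in 6 CM droplets and 8 in 3 TCM droplets, with an interval of -2.57 to 0.20. Among all genes the shares were 5.40% higher and 2.24% lower. The median log2 ratio of the chemokines was -0.28. Ccl8, a monocyte-attracting chemokine (chr11:82115185-82116799), had 217 UMIs in 10 CM droplets and 39 in 15 TCM droplets, a log2 ratio of -2.70 (interval -3.23 to -2.20). Of the CM UMIs, 119 came from 1 droplet and 65 from another, and the thinned share of droplets with a Ccl8 UMI was 6.82% in CM and 6.06% in TCM. Cxcl13, the chemokine that draws B cells to follicles, had 131 UMIs in 10 CM droplets and 61 in 14 TCM droplets (log2 ratio -1.32, interval -1.79 to -0.87), and its log2 ratio was -0.54 with the mean over droplets. The CM droplet with the most Ccl8 also held 41 of its Cxcl13 UMIs.

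Ccl17 had 25 UMIs in 2 CM droplets and 181 in 6 TCM droplets (log2 ratio 2.64), and 142 of the latter lay in 1 droplet. That droplet had only 8 C1q UMIs among 8078, beside 22 of Ccl22 and 9 of Ccr7, which are genes of migratory dendritic cells, but 0 of Fscn1, another such gene. The CM droplet with 24 of the 25 Ccl17 UMIs had 6 C1q UMIs among 6422, with 6 of Ccl22, 6 of Ccr7 and 0 of Fscn1. Dendritic cell markers summed to 27 UMIs per 100000 in CM and 59.5 in TCM, and 2 CM and 6 TCM droplets had at least 10 UMIs of them. Their part in these ratios was not tested.

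The abundant inflammatory chemokines differed by less than 2-fold. Cxcl2, a neutrophil attractant, had 1356 UMIs in 58 CM droplets and 1131 in 66 TCM droplets (log2 ratio -0.48, interval -0.60 to -0.37). Ccl4 had 656 and 585 (-0.38), Ccl3 321 and 237 (-0.66), and Ccl2, which attracts monocytes, 277 and 419 (0.38). Ccl6 had 140 UMIs in 45 droplets and 319 in 73 (0.97, interval 0.68 to 1.27), and 1.84 in deep droplets.

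**Figure D4:**
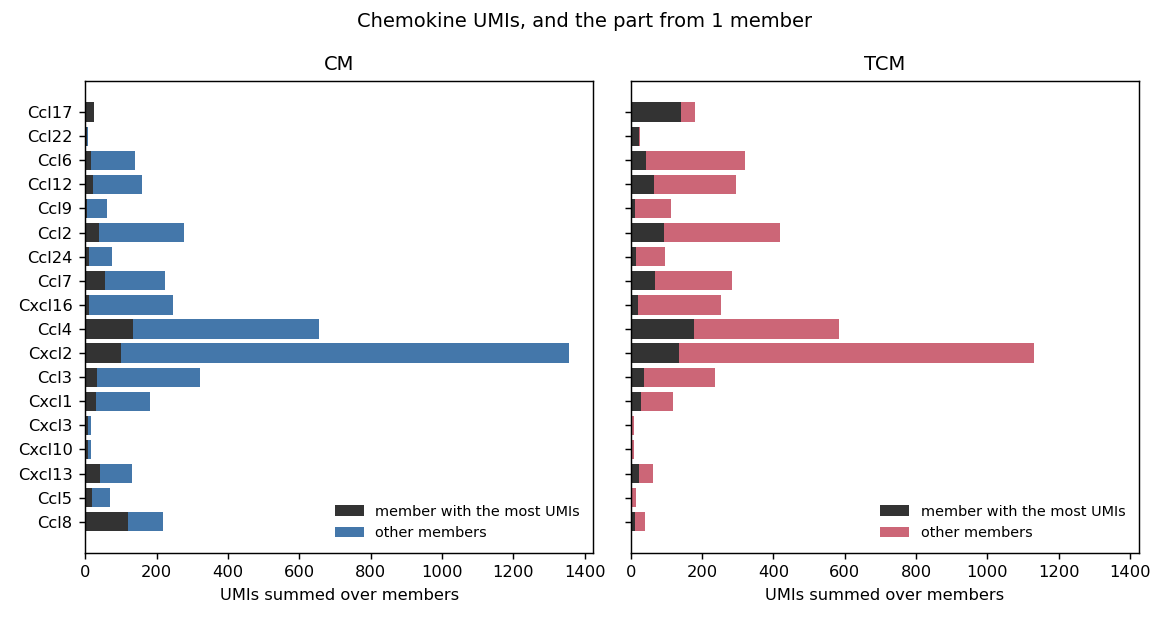
UMIs of 18 chemokines summed over interstitial macrophages, CM left and TCM right, with the part from the droplet holding the most in black. For Ccl8 in CM that droplet gave 119 of 217 UMIs, for Ccl17 in TCM 142 of 181, and for Cxcl2 in CM 101 of 1356.

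Among chemokine receptors, Ccr1, a receptor for Ccl3 and related ligands, had 10 UMIs in 7 CM droplets and 45 in 27 TCM droplets (log2 ratio 1.95, interval 0.94 to 3.10). Monocytes had Ccr1 at 3.98 UMIs per 100000 in CM and 38.1 in TCM, and T cells at 0.108 and 3.19. Cxcr4 was at least 2-fold lower, with 26 UMIs in 22 droplets and 15 in 13 (-1.01, interval -2.04 to -0.04). Of 6 receptors, Ccr1 and Ccr7 were 2-fold higher and Cxcr4 2-fold lower, against 5.40% and 2.24% of all genes.

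Proteases and cytokines were mixed. Mmp12 (chr9:7344381-7369499) had 248 UMIs in 42 CM droplets and 120 in 31 TCM droplets, a log2 ratio of -1.27 (interval -1.59 to -0.95). It was 80.6 against 38.1 UMIs per 100000 in high droplets and 10 against 1.4 in low droplets. The thinned share of droplets with an Mmp12 UMI was 30.7% in CM (interval 21.3 to 41.4%) and 15.2% in TCM (interval 8.74 to 23.8%), and the unthinned share 41.2% and 28.2%, and the intervals overlap. With no UMI of the excluded sets allowed, the log2 ratio was -0.91. T cells had 0 and 1 Mmp12 UMIs. Tnf, the cytokine tumour necrosis factor, had 120 UMIs in 42 droplets and 67 in 36 (-1.06, interval -1.51 to -0.62), and its log2 ratio was -0.72 in deep droplets. The thinned share of droplets with a Tnf UMI was 17% in CM (interval 9.87 to 26.6%) and 14.1% in TCM (interval 7.95 to 22.6%), which overlap. Il1b had 419 and 563 UMIs (0.21). Over 16 cytokine and NF-kB genes, Il1rn and Ptgs2 were 2-fold higher and Tnf 2-fold lower, with a median of -0.03. Of all genes, 5.40% were 2-fold higher and 2.24% 2-fold lower. The interval of Ptgs2 was -0.07 to 2.27, and its log2 ratio turned to -0.77 with the mean over droplets. Mmp9, gelatinase B, had 28 UMIs in 15 droplets and 70 in 18 (1.1, interval 0.45 to 1.79), and its log2 ratio was 0.41 with the mean over droplets and 0.49 after thinning.

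Genes of other cells were among those with the largest ratios. By the rule of the 10 largest rises and 10 largest falls among genes seen in at least 10 droplets of the higher library, the rises were S100a9, S100a8, G0s2, Lrg1, Lyz1, Retnlg, Rgcc, Mxd1, Exoc5 and Ly6c2. S100a9, an alarmin subunit abundant in neutrophils, had 4 UMIs in 4 CM droplets and 155 in 68 TCM droplets (log2 ratio 5.06, interval 3.67 to 6.95), with at most 15 in any droplet. S100a8, its partner, had 3 UMIs in 3 droplets and 98 in 43 (4.81). An S100a8 or S100a9 UMI was present in 6.86% of CM and 73.6% of TCM interstitial macrophages, and in 8.14% of CM and 72.9% of TCM T cells, which do not make these transcripts. After thinning the shares were 1.14% and 31.3% in interstitial macrophages and 3.04% and 44.9% in T cells. At equal depth the shares were below those of T cells in both libraries, so no expression is read from them. In droplets of at most 50 UMIs, which hold free RNA, S100a9 stood at 96 UMIs per 100000 in CM and 436.6 in TCM. With free RNA subtracted, the log2 ratio was 3.32 for S100a9, 2.88 for S100a8 and 0.50 for Retnlg, and the part of free RNA in these ratios was not tested further.

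The neutrophil markers as a list summed to 10.5 and 78.6 UMIs per 100000 in interstitial macrophages and to 12.5 and 275.6 in alveolar macrophages. Of 14 pre-metastatic niche and suppressive genes with enough UMIs, 6 were 2-fold higher, namely S100a8, S100a9, Mmp9, Retnla, Vegfa and Thbs1, and Mmp12 was 2-fold lower, with a median of 0.68. Over all genes, 5.40% were 2-fold higher and 2.24% 2-fold lower. Of the TCM UMIs, 1 droplet gave 16 of 29 for Retnla, 14 of 22 for Vegfa and 12 of 18 for Thbs1.

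Single droplets also carried others of these rises. Rgcc had 46 TCM UMIs, of which 33 lay in 1 droplet of 12155 UMIs. The same droplet held 150 of the 158 TCM UMIs of Ager, a type 1 alveolar cell gene, beside 121 C1q UMIs. Of the 58 Lyz1 UMIs 32 lay in 1 droplet, of the 23 Lrg1 UMIs 12, and of the 59 Mxd1 UMIs 25. Exoc5, a subunit of the exocyst, had 2 and 19 UMIs, spread over 2 and 18 droplets.

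The 10 largest falls were Rbp4, Ccl8, Ccl5, Mgp, Nfs1, Col3a1, Abi3bp, Clpx, Gpc3 and Pdcd7. Mgp, the matrix Gla protein of fibroblasts and cartilage, had 63 UMIs in 26 CM droplets and 15 in 14 TCM droplets (log2 ratio -2.29), and its ratio was -0.34 in deep droplets. Col3a1, the collagen III chain, had 17 UMIs in 11 droplets and 5 in 4. The structural cell marker list, which holds Col3a1, went the other way, with a median log2 ratio of 0.96. In it 3 of 9 genes were 2-fold higher and Col3a1 alone 2-fold lower, against 5.40% and 2.24% of all genes. Ccl5, a chemokine of T and NK cells, had 68 UMIs in 16 droplets and 15 in 13 (-2.40), and turned to 1.34 in deep droplets. Clpx, a mitochondrial chaperone, had 21 UMIs in 14 droplets and 7 in 7 (-1.80, interval -3.28 to -0.52), and -1.96 in deep droplets. Nfs1, the mitochondrial cysteine desulfurase, had 19 UMIs in 18 droplets and 5 in 5 (-2.15), and -2.28 in deep droplets.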

How the data were processed

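RNA of single cells was measured in 1 CM and 1 TCM library of whole lung, made with a Chromium kit that reads transcripts from the 5′ end. The authors mapped the reads with Cell Ranger (version 4 in the file header) to mm10 (GRCm38.p6), and the deposited matrices hold raw UMI counts per gene and barcode, with no normalization. The libraries held 31944151 (CM) and 36648719 (TCM) UMIs. Groups were taken from the treatment labels.

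Droplets with at least 500 UMIs, at least 200 genes and at most 10% mitochondrial UMIs were kept. No annotation of cells was used here. UMIs were summed over the droplets of a class and given per 100000. A log2 ratio of TCM over CM was taken where the 2 sums came to at least 20 UMIs, and 2-fold was the threshold. A sum of 0 was set to 3 counts, which makes a ratio a bound. Intervals at 95% are exact Poisson for sums, Clopper-Pearson for shares and conditional binomial for ratios (scipy 1.17.1). Shares of droplets with a UMI were taken after thinning each droplet to 1000 UMIs. T cells were droplets with at least 3 UMIs over Cd3d, Cd3e and Cd3g, with at most 1 UMI each of C1q, the alveolar set and the other lineage genes. Scrublet (scanpy 1.11.5) marked 0 droplets with its own threshold and so had not worked. The top 6% by score were removed only as an alternative, and otherwise doublets were limited by the lineage genes alone. Free RNA was estimated from droplets of at most 50 UMIs and 7 erythroid, AT2 and club cell genes, at 127.6 UMIs per CM and 253.7 per TCM interstitial macrophage, and is not subtracted unless stated. Ratios and intervals were tested on simulated Poisson sums with known folds. The simulation held no spread between droplets, so it does not test sums that 1 droplet dominates. Gene positions are from GENCODE vM21.

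The members, the gene lists and the tests were chosen with earlier results of these data known. Named genes are the 10 largest rises and falls past 2-fold seen in at least 10 droplets of the higher library, and list genes that passed 2-fold or carried the most UMIs. All other genes named, such as Csf1r, Cd14, Ciita, Ctsb, Plin2, Igf1, Itgax, Ager and the markers of other cells, were chosen after their values were seen.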

Additional observations from a re-analysis of the deposited data

How the results depend on the processing

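The ratio of the shares of interstitial macrophages stayed between 1.08 and 1.19 under 7 other choices of droplets, and the Lyve1-type median log2 ratio between 0.72 and 1.12 under 12 alternatives. The counts of genes past the fold, 289 higher and 120 lower, depended on the settings: 473 and 347 with the mean over droplets in place of sums, 68 and 61 after thinning, 57 and 25 with at least 50 UMIs, 1143 and 656 with no minimum, and 787 and 504 at 1.5-fold. The share of CM droplets with a Lyve1 or Folr2 UMI was 13% where no UMI of the excluded sets was allowed, and 31.8% of CM droplets were MHC class II low among deep droplets. In deep droplets Ccl5 turned to a log2 ratio of 1.34, Serping1 to 0.13 and Ager to -0.45, and Ager was at -0.11 with no UMI of the excluded sets. The TCM droplet with 150 of the 158 Ager UMIs took 0.995% of its UMIs from C1q, so it was not a deep droplet. The deep ratios of Ager and Ccl5 rest on few UMIs. Over all droplets Ager had 5 UMIs in CM, and Ccl5 had 15 in TCM. Ptgs2 turned to -0.77 with the mean over droplets and to -1.49 after thinning. The cause of the other changes was not tested. Of the values of named genes past 2-fold under all alternatives, 548 stayed past it in the same direction, 33 fell short of it and 6 reversed. The deep droplets and the ratios without the top droplet were added after seeing the data. No paired analysis was possible because each group held 1 library. The numbers of droplets, 102 and 110, limit what can be seen in genes of few UMIs.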

Other observations

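Some gene groups outside the main comparison were also read, beside 5.40% of all genes at least 2-fold higher in TCM and 2.24% at least 2-fold lower. Of 8 glucocorticoid-induced genes, Fkbp5 and Ddit4 were at least 2-fold higher in TCM and none was 2-fold lower, with a median log2 ratio of 0.67. Fkbp5, a chaperone of the glucocorticoid receptor, had 15 UMIs in 15 CM droplets and 39 in 31 TCM droplets (log2 ratio 1.16, interval 0.27 to 2.12), with at most 2 in any droplet. Of 8 interferon-stimulated genes, Isg15 (17 UMIs in 10 droplets and 43 in 19) and Oasl2 (3 UMIs in 3 droplets and 20 in 12) were 2-fold higher, with a median of 0.39, and the log2 ratio of Isg15 was 0.14 where no UMI of the excluded sets was allowed. Of 8 Toll-like receptor genes, Tlr8 (4 UMIs in 4 droplets and 16 in 12) and Tlr13 (7 in 7 and 23 in 19) were 2-fold higher, with a median of 0.55.

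Cell cycle genes had a UMI in 39 of 102 CM and 44 of 110 TCM droplets, but at least 10 UMIs in only 3 and 2. They summed to 274 UMIs in CM, 108 of them in 1 droplet, and to 210 in TCM, 98 of them in 1 droplet. Those droplets had 16323 and 20830 UMIs, and Mki67 was detected in 3 CM and 2 TCM droplets. Of 8 cell cycle genes with enough UMIs, none was 2-fold higher in TCM, and Stmn1 and Mki67 were 2-fold lower. Their log2 ratios were -1.18 (interval -1.68 to -0.69) and -1.22 (interval -2.41 to -0.11). Gdf15, a stress-induced cytokine, had 66 UMIs in CM, 53 of them in 1 droplet, and 4 in TCM. All 19 UMIs of Cxcl9, an interferon-gamma target, lay in 1 CM droplet, and TCM had 0.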
